A study of Homo sapiens with 12 samples.

Results

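The transcription factors TFAP2A, TFAP2C, HAND1, GATA2 and GATA3, each known from the trophoblast lineage of the placenta, were followed across Caco-2 cells, a line from a human colonic adenocarcinoma. Every probe annotated to these 5 symbols was taken, which gave 8 of the 47231 probes on the Illumina HT12 bead chip array. Of these, 7 were among the 14804 probes tested, and they stood for 5 of the 9203 genes named among the tested probes. The genes were chosen by levels and differences measured on these arrays, so their values are given as a description, without P values of their own.

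The 12 arrays fell into 4 groups of 3. Caco-2 cells had been transfected, using Lipofectamine RNAiMAX, with ZNF658 siRNA 1 or control siRNA 1, both from Ambion, or with ZNF658 siRNA 2, a pool of siRNAs, or control siRNA 2, both from Dharmacon. ZNF658 is a zinc finger protein that acts at the zinc transcriptional regulatory element, and the arrays were made to see which transcripts respond when it is depleted. All 4 groups share the cell line, the transfection reagent and an siRNA, so no untransfected cells were compared. Supplier and any culture, day or chip shared by the arrays of a supplier cannot be told apart here. The labels do not say that replicates came from separate cultures, so P values measure only the spread between these arrays, which may be technical.

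As background, TFAP2C (AP-2γ) and TFAP2A (AP-2α) bind DNA as dimers at a GC-rich palindrome, and GATA2 and GATA3 are zinc finger proteins that bind GATA sequences. In human embryos and in trophoblast cultures, AP-2 and GATA factors bind together near trophoblast genes, among them those for chorionic gonadotropin, the hormone secreted by the syncytiotrophoblast. HAND1 is a basic helix-loop-helix factor that pairs with E proteins and, in the mouse, is needed for trophoblast giant cells and for the heart. None of these factors is restricted to the placenta, since they also act in skin, breast, blood, neural crest or sympathetic neurons.

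The promoters of the members were searched for the sites these factors bind. RefSeq promoters (GRCh38.p14, 250 bases before to 50 after a gene start) were at hand for 4 of the 5 genes, 11 promoters in all. TFAP2C had none, and alternative starts of GATA3 made up most of the 11. Starts of the same gene are not independent, so the shares below count promoters and not genes. The AP-2 palindrome GCCNNNGGC, which reads the same on both strands, was present in 6 of these 11 promoters and in 23.2% of 35116 promoters. The GATA motif (GATA with A or T before it and A or G after it, searched on both strands) was in 0 of 11 and in 25% of all. The zinc transcriptional regulatory element, at which ZNF658 acts, was in 5 of 11 and in 22.2% of all. The following windows show the AP-2 palindrome in capitals for HAND1, the member whose level differed most between groups, and the copy nearest to the gene start in GATA2 and in GATA3. The windows are written 5′ to 3′ on the strand of the gene, and no palindrome shown overlapped a copy of the other motifs.
HAND1, position -72 from the start, chr5:154478281-154478309, minus strand: ccgcccccctGCCATTGGCtcccgggaga
HAND1, position 38, chr5:154478178-154478200, minus strand: cggcgacctcGCCCGCGGCagaa
GATA2, position -21, chr3:128488533-128488561, minus strand: cctttctggaGCCACCGGCcgggccacct
GATA3, position -206, chr10:8053425-8053453, plus strand: gcattttcggGCCAGCGGCtgcagccacc
The copy of the zinc element in GATA2 at position -58 is shown, in capitals, because it was the shortest in a member promoter.
GATA2 zinc element, chr3:128488567-128488595, minus strand: cgaaggcCACGCCCGGGGAGGGgtgcccc
The HAND1 promoter held 2 AP-2 palindromes and 3 matches to the zinc element, whereas the 2 TFAP2A promoters held neither. Matches to the zinc element may overlap each other, so they do not count separate sites. A match is a description of the letters and not of binding.

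Between 14454 and 16167 probes were detected per array (detection P under 0.01), and the number of arrays limits the precision. Of the tested probes, 0 were named ZNF658, so the depletion was not read from the arrays. An array in each Dharmacon group went against its label. For the third array of ZNF658 siRNA 2, Pearson's r over the tested probes was 0.971 to 0.983 against the remaining arrays of its group but 0.987 to 0.989 against those of the control. For the third array of control siRNA 2, r was 0.945 to 0.948 within the group and 0.960 to 0.973 against the remaining ZNF658 siRNA 2 arrays. Its r against the Ambion arrays was 0.939 to 0.957, so it stood apart from most arrays and not from its own group alone. Results of the Dharmacon groups are therefore given with and without both arrays.

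The label of the cell line was checked against enterocyte markers. Of 27 such genes, 13 had a named probe, and 9 of these 13 were detected on all 12 arrays, among them EPCAM, KRT8, KRT19, APOA1 and the intestinal cadherin CDH17. Of 16 named genes in a list of intestinal transcription factors, 8 were detected on all 12 arrays, CDX1 and CDX2 among them, and 6 on under 6 arrays. APOB was detected on 9 arrays, MUC13 on 3 and GPA33 on 1. VIL1, SI, FABP1, FABP2, LGALS4, ALPI, ANPEP and KRT20 have no named probe in the annotation used and were not analysed here. Of 24 named genes in a list of trophoblast products, 18 were detected on all 12 arrays, as were 17 of 19 named genes in a list of other trophoblast transcription factors, TEAD4, VGLL1, GCM1 and PPARG among them. Of the markers detected, EPCAM, KRT8, KRT18 and KRT19 are general epithelial genes, and CDX2 also acts in trophoblast. Probes of placental products were detected in every group beside the few intestinal markers measured, so these probes did not settle the identity of the line, and Caco-2 is used here as the name on the labels. In bulk samples, fewer cells of a type and less RNA per cell cannot be told apart.

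Levels are log2 intensities after background correction and quantile normalization, and a difference of 1 on this scale is a doubling. A probe was called when its limma P value, adjusted after Benjamini-Hochberg over all tested probes, was under 0.05 and it changed at least 1.2-fold. The 7 tested member probes were detected on all 12 arrays. Levels of different probes are not compared. A call of a member probe is given as a description too, since measured differences chose the members.

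HAND1 was the member that separated the groups. Its probe (ILMN_1680987) read 7.51, 8.09 and 7.93 with ZNF658 siRNA 1 and 8.10, 8.30 and 8.32 with control siRNA 1. It read 9.34, 9.56 and 9.13 with ZNF658 siRNA 2 and 9.36, 9.41 and 9.95 with control siRNA 2. All 6 Dharmacon arrays lay above all 6 Ambion arrays, with a gap of 0.81 between the ranges, whether a ZNF658 siRNA or a control siRNA had been used. Of all tested probes, 1.47% were separated by supplier in this direction. In order, control siRNA 2 (9.57 ± 0.33, SD, n = 3) was followed by ZNF658 siRNA 2 (9.34 ± 0.21), control siRNA 1 (8.24 ± 0.12) and ZNF658 siRNA 1 (7.85 ± 0.30). The Dharmacon groups overlapped each other, and the other neighbours in this order did not overlap.

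TFAP2C, a factor of trophoblast progenitors, was read by 2 probes. The first (ILMN_2096784) gave 12.68, 12.38 and 12.67 with ZNF658 siRNA 1 and 12.62, 12.72 and 12.87 with control siRNA 1. It gave 12.51, 12.06 and 12.40 with ZNF658 siRNA 2 and 12.42, 12.36 and 12.23 with control siRNA 2. All arrays of control siRNA 2 were below all arrays of control siRNA 1, as was true of 11.3% of all tested probes, while each ZNF658 siRNA overlapped its own control. The second probe (ILMN_1683891) gave 11.38, 11.57 and 11.84 with ZNF658 siRNA 1 and 11.88, 11.99 and 12.02 with control siRNA 1. It gave 12.00, 11.80 and 11.68 with ZNF658 siRNA 2 and 11.45, 11.34 and 11.92 with control siRNA 2. On this probe the groups of the Ambion pair did not overlap, and replicate 3 of control siRNA 2 stood above its own group. The 2 probes, which carry the same transcript accession, correlated at r = 0.26 over the 12 arrays.

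TFAP2A was read by 3 probes assigned to different transcripts, of which 2 were tested. The brighter (ILMN_1765574) gave 9.96, 9.83 and 9.55 with ZNF658 siRNA 1 and 9.52, 9.55 and 9.82 with control siRNA 1. It gave 9.79, 9.46 and 9.45 with ZNF658 siRNA 2 and 9.59, 9.83 and 10.48 with control siRNA 2. The highest of the 12 values was that of replicate 3 of control siRNA 2, and neighbouring groups overlapped. The other tested probe (ILMN_2374115) gave 6.93, 7.63 and 7.32 with ZNF658 siRNA 1, 6.95, 6.84 and 6.95 with control siRNA 1, 6.66, 6.58 and 7.12 with ZNF658 siRNA 2 and 7.00, 7.40 and 6.42 with control siRNA 2. On this probe replicate 3 of control siRNA 2 was the lowest array, and the 2 probes correlated at r = -0.28. The third probe (ILMN_1733135) was detected on 1 of 12 arrays, replicate 1 of ZNF658 siRNA 1, and was not tested.

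GATA2, a factor of trophoblast and of blood progenitors, and GATA3, a factor of trophoblast, T cells and luminal breast epithelium, were read by 1 probe each. GATA2 (ILMN_2102670) read 10.53, 10.27 and 10.19 with ZNF658 siRNA 1 and 10.34, 10.12 and 10.55 with control siRNA 1. It read 9.92, 9.88 and 9.78 with ZNF658 siRNA 2 and 9.81, 10.03 and 10.90 with control siRNA 2. All arrays of ZNF658 siRNA 2 were below all 6 Ambion arrays, as was true of 4.9% of all tested probes, whereas control siRNA 2 spanned the whole range of the probe apart from its lowest value. GATA3 (ILMN_2406656) read 10.27, 10.36 and 10.07 with ZNF658 siRNA 1 and 9.93, 10.40 and 10.20 with control siRNA 1. It read 10.25, 10.65 and 9.95 with ZNF658 siRNA 2 and 9.93, 9.98 and 10.64 with control siRNA 2. The 4 group means of GATA3 spanned 0.10, less than its pooled SD within groups of 0.30.

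**Figure D1:**
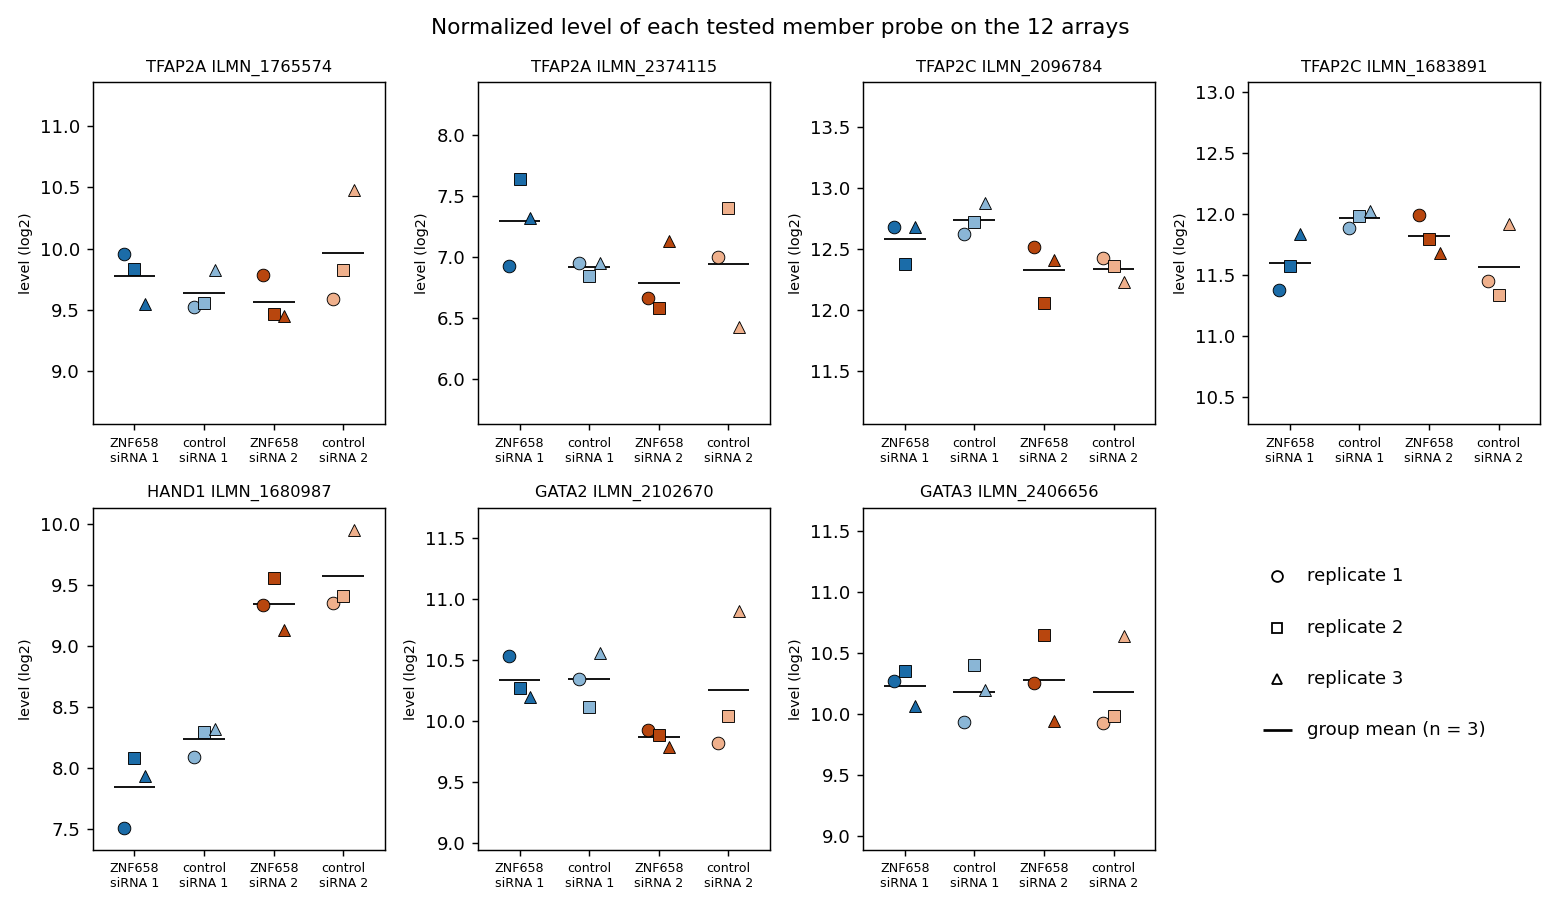
Level (log2) of each of the 7 tested member probes by group, with a marker shape for each replicate and a line at the mean of 3 arrays; every panel spans the same number of log2 units. HAND1 separates the Dharmacon arrays (9.13 to 9.95) from the Ambion arrays (7.51 to 8.32), and replicate 3 of control siRNA 2 stands apart from its group for GATA2 and GATA3.

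ZNF658 siRNA 1 was compared with control siRNA 1 to ask whether depletion of ZNF658 alters these factors. HAND1 was lower by 0.39 (log2 difference -0.39, SE 0.21, 95% interval -0.83 to 0.047), and its groups did not overlap. The second TFAP2C probe had a difference of -0.37 (SE 0.17, interval -0.72 to -0.014), also without overlap, and the first had -0.16 (SE 0.14). TFAP2A had differences of 0.15 (SE 0.21) and 0.38 (SE 0.26) on its brighter and dimmer tested probe. GATA2 and GATA3, at -0.0076 (SE 0.23) and 0.053 (SE 0.22), differed by less than the spread between arrays. In this comparison 0 of the 7 member probes were called, against 0.0135% of all probes, 2 in number (1067 probes had an unadjusted P under 0.05). Of all probes, 8.46% had every array of ZNF658 siRNA 1 below every control array, as HAND1 and the second TFAP2C probe did. The HAND1 value depended on which control was used. Set against control siRNA 2, the HAND1 difference of ZNF658 siRNA 1 was -1.73, which met the call.

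ZNF658 siRNA 2 was compared with control siRNA 2 for the same purpose. TFAP2A had differences of -0.40 (SE 0.21, interval -0.85 to 0.056) and -0.15 (SE 0.26), and GATA2 had -0.39 (SE 0.23, interval -0.87 to 0.10). HAND1 had -0.23 (SE 0.21), and GATA3 had 0.097 (SE 0.22). The TFAP2C probes had -0.011 (SE 0.14) and 0.26 (SE 0.17). In all 7 the groups overlapped and 0 were called, as was 0% of all probes (837 probes had an unadjusted P under 0.05). These values rested on both replicate 3 arrays. Replicate 3 of ZNF658 siRNA 2 minus replicate 3 of control siRNA 2 gave -1.12 for GATA2, -1.03 for the brighter TFAP2A probe, -0.82 for HAND1 and -0.69 for GATA3. Without both arrays the differences became -0.021 (SE 0.18) for GATA2, -0.081 (SE 0.19) for the brighter TFAP2A probe, 0.064 (SE 0.20) for HAND1 and 0.49 (SE 0.19) for GATA3. The second TFAP2C probe then had 0.50 (SE 0.16) and the dimmer TFAP2A probe -0.58 (SE 0.24). Again 0 of the 7 were called, while 1.81% of all probes were.

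**Figure D2:**
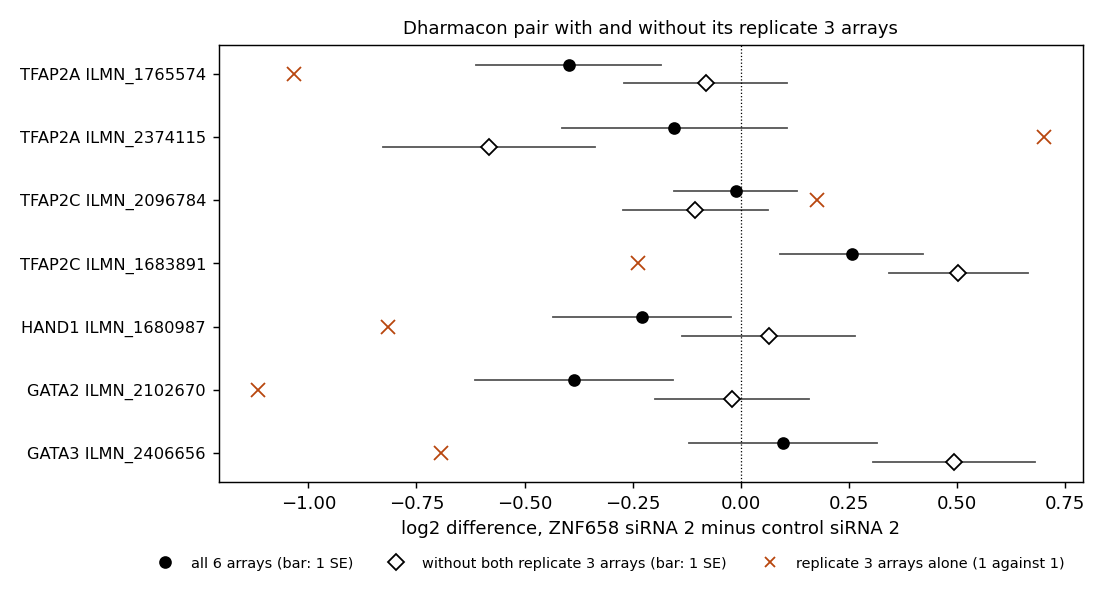
Log2 difference of ZNF658 siRNA 2 minus control siRNA 2 for the 7 tested member probes, with all 6 arrays (filled circles), without both replicate 3 arrays (open diamonds; bars are 1 SE) and between the replicate 3 arrays alone (crosses). The crosses lie on the opposite side of 0 from the open diamonds for HAND1, GATA3, both TFAP2C probes and the dimmer TFAP2A probe.

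The mean of both siRNA effects was -0.31 (SE 0.15, interval -0.62 to -0.00054) for HAND1 and between -0.20 and 0.11 for the other 6 probes. Of the 7, 0 were called, against 0.00675% of all probes, 1 in number (372 had an unadjusted P under 0.05). The siRNA effects differed most on the second TFAP2C probe, by 0.62 (siRNA 2 minus siRNA 1, SE 0.24, interval 0.12 to 1.13), where the probe was lower than control with siRNA 1 and higher with siRNA 2. That difference was not called, nor was that of any probe (0%, with 1597 at an unadjusted P under 0.05). Without both replicate 3 arrays it was 0.87 and met the call. The first TFAP2C probe had a difference of 0.15 (SE 0.20).

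The 2 controls were compared because a non-targeting siRNA should leave these factors alone, whatever its supplier. HAND1 was 2.53-fold higher with control siRNA 2 than with control siRNA 1 (log2 difference 1.34, SE 0.21, interval 0.90 to 1.78), and without overlap. It was the 1 member probe called of 7, beside 2.03% of all probes, 301 in number. Of these, 75 were higher (0.507%) and 226 lower (1.53%), and with median scaling 61 were higher and 108 lower. Both TFAP2C probes were on the other side of 0, at -0.40 (SE 0.14, interval -0.70 to -0.098) and -0.40 (SE 0.17, interval -0.75 to -0.043), and neither was called. TFAP2A had 0.33 (SE 0.21) and 0.030 (SE 0.26), GATA2 had -0.088 (SE 0.23) and GATA3 had 0.0068 (SE 0.22). Without both replicate 3 arrays, HAND1 was higher by 1.15 (SE 0.18) and stayed called, and the second TFAP2C probe, at -0.57 (SE 0.15), was called as well, beside 5.53% of all probes. GATA2 then had -0.41 (SE 0.16) and GATA3 -0.22 (SE 0.17), and neither was called. Leaving out replicate 3 of control siRNA 2 alone gave the same -0.57 and the same call for TFAP2C.

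**Figure D3:**
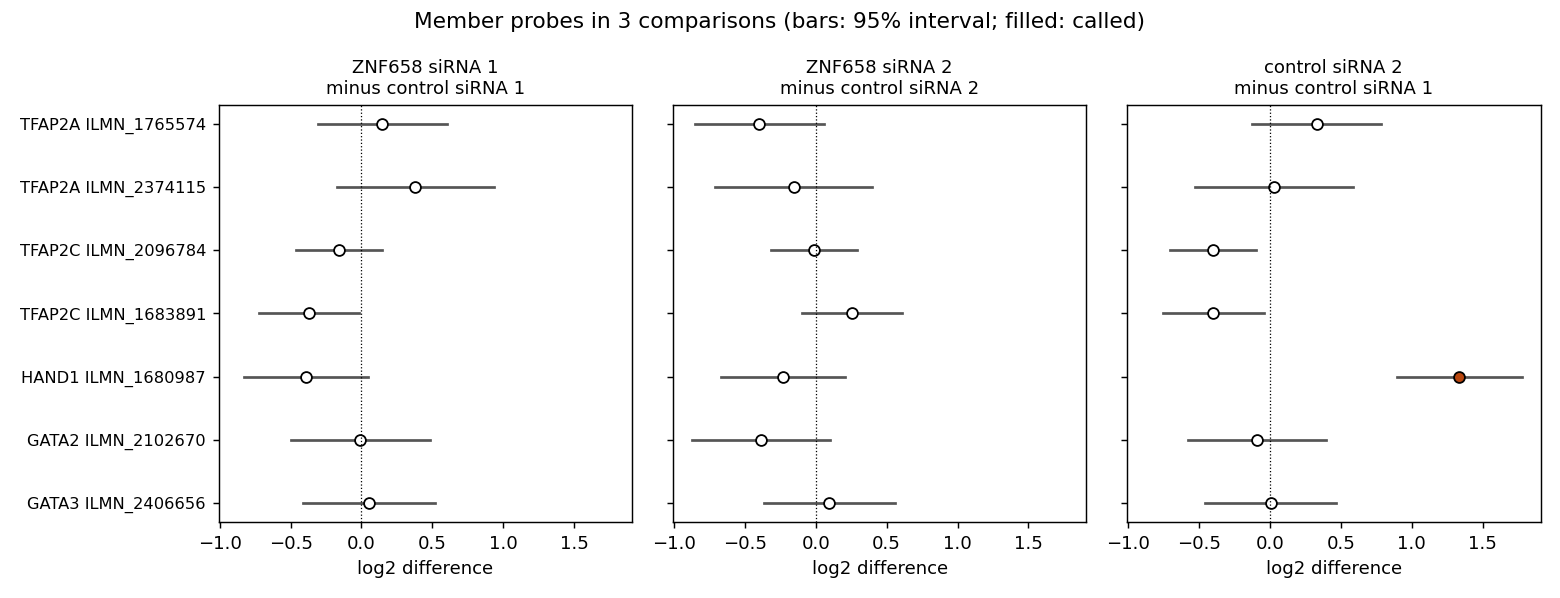
Log2 differences of the 7 tested member probes in the comparisons of each ZNF658 siRNA with its control and of control siRNA 2 with control siRNA 1 (bars are 95% intervals; a filled point is a probe that was called). HAND1 between the controls, at 1.34, is the filled point.

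Most of the tested products that mark trophoblast differed between the controls in the direction opposite to HAND1. The lists of products and of other trophoblast factors were drawn up with earlier results of these data known. Their counts and P values are therefore a description and not independent support. Of 38 listed products, 22 were tested, and 14 were called lower and 0 higher with control siRNA 2. Of all probes, 1.53% were called lower and 0.507% higher. The median difference was -1.08 for the products, against 0.0075 over all probes. The genes of chorionic gonadotropin led the called products. CGA, its common alpha subunit, fell by 2.06 on the log2 scale (limma, Benjamini-Hochberg adjusted P = 0.0026), a 4.17-fold difference. The beta subunit probes CGB5, CGB1 and CGB8 had log2 differences of -3.36, -3.22 and -3.01 (adjusted P = 5.5e-05, 2.6e-06 and 3.4e-05 from limma), and since these gene copies are nearly identical, the copy behind each probe is uncertain. CGB7 was not detected on any Dharmacon array and was at least 2.81-fold lower with control siRNA 2 (measured against the detection level of each array, adjusted P = 1.8e-05 from limma).

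The fall also covered genes of steroid synthesis, cell fusion and secretion. HSD3B1 fell by 1.22, CYP19A1, which encodes aromatase, by 1.04 and CYP11A1, the first enzyme of steroid synthesis, by 1.00 (limma adjusted P = 0.00056, 0.010 and 0.020). The retroviral envelope genes ERVW-1 (syncytin-1) and ERVFRD-1 (syncytin-2), which fuse trophoblast cells, fell by 1.25 and 1.24 (limma adjusted P = 0.0021 and 0.0083). LGALS13, a placental galectin, fell by 1.34, PGF, the placental growth factor, by 1.22, SDC1, a syncytiotrophoblast proteoglycan, by 0.91 and ADM, the peptide adrenomedullin, by 0.89 (limma adjusted P = 0.0091, 0.041, 0.026 and 0.046). The other 8 tested products were not called, and KISS1 (0.88), HLA-G (0.66), KRT7 (0.21) and PEG10 (0.041) had log2 differences above 0. Without both replicate 3 arrays 15 were called lower, the same 14 and PSG3, and 0 higher. Of all probes, 5.53% were then called in either direction. With either ZNF658 siRNA against its own control, 0 of the 22 were called in either direction. The 14 called between controls fell to 9, 9 and 8 without replicates 1, 2 and 3 of control siRNA 1, and to 5 with median scaling.

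The summed intensity of the 22 products differed by supplier, in the direction opposite to HAND1. It ran from 31624 to 36960 over the arrays of ZNF658 siRNA 1, from 30845 to 36107 for control siRNA 1, from 12595 to 15597 for ZNF658 siRNA 2 and from 15508 to 15944 for control siRNA 2. Every Dharmacon array was below every Ambion array on this sum, as every Dharmacon array was above them for HAND1. Within each supplier the sums of the ZNF658 siRNA and its control overlapped, so the opposition was seen between suppliers. Overlap of so few arrays does not exclude a difference within a supplier, and the sums were not tested for it. Against its own control, ZNF658 siRNA 1 had 13 of the 22 products below 0 and 9 above. ZNF658 siRNA 2 had 16 below 0 and 6 above. Taken singly, 14 of the 22 products were lower and 2 higher on every Dharmacon array, against 2.31% and 1.47% of all tested probes. Of the 14 called between the controls, 12 were lower on every Dharmacon array, the exceptions being PGF and CYP11A1. The summed intensity of the 11 tested enterocyte markers ran from 29991 to 37160 on Ambion arrays and from 31772 to 48966 on Dharmacon arrays. The brightest of the 11 were the general epithelial genes KRT19, EPCAM and KRT8, which weigh most in this sum. The mean log2 level of the 11 ran from 9.19 to 9.31 on Ambion arrays and from 8.99 to 9.23 on Dharmacon arrays. Taken singly, DPP4 was lower on every Dharmacon array, 0 were higher and 10 overlapped. Of the 11, 0 were called. The part of any change in the cell population in the HAND1 difference was not tested.

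Of the other trophoblast transcription factors, 18 of 30 were tested, and GCM1 and DLX5 were called lower with control siRNA 2 and 0 higher (median -0.16). Of all probes, 1.53% were called lower. GCM1, the factor that drives syncytiotrophoblast fusion, read 9.59 ± 0.071 with control siRNA 1 and 8.76 ± 0.33 with control siRNA 2 (SD, n = 3), a difference of -0.83 (SE 0.17, limma adjusted P = 0.021). DLX5, a homeobox factor, read 9.25 ± 0.16 and 8.49 ± 0.18, a difference of -0.75 (SE 0.16, limma adjusted P = 0.026). Both factors were lower on all Dharmacon arrays than on all Ambion arrays, as were 2.31% of all tested probes, at 8.54 to 9.18 against 9.42 to 9.64 for GCM1 and at 8.36 to 8.70 against 8.98 to 9.36 for DLX5. ASCL2 was at 0.52 (SE 0.15, limma adjusted P = 0.11) and was not called. Without both replicate 3 arrays, GCM1, DLX5 and ARID3A were called lower between the controls, beside 5.53% of all probes called in either direction. With either ZNF658 siRNA, 0 of the 18 were called, and SOX15 had the widest difference, 0.56 with siRNA 1 (SE 0.16, limma adjusted P = 0.69). The calls of GCM1 and DLX5 were lost without any 1 replicate of control siRNA 1 and with median scaling.

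**Figure D4:**
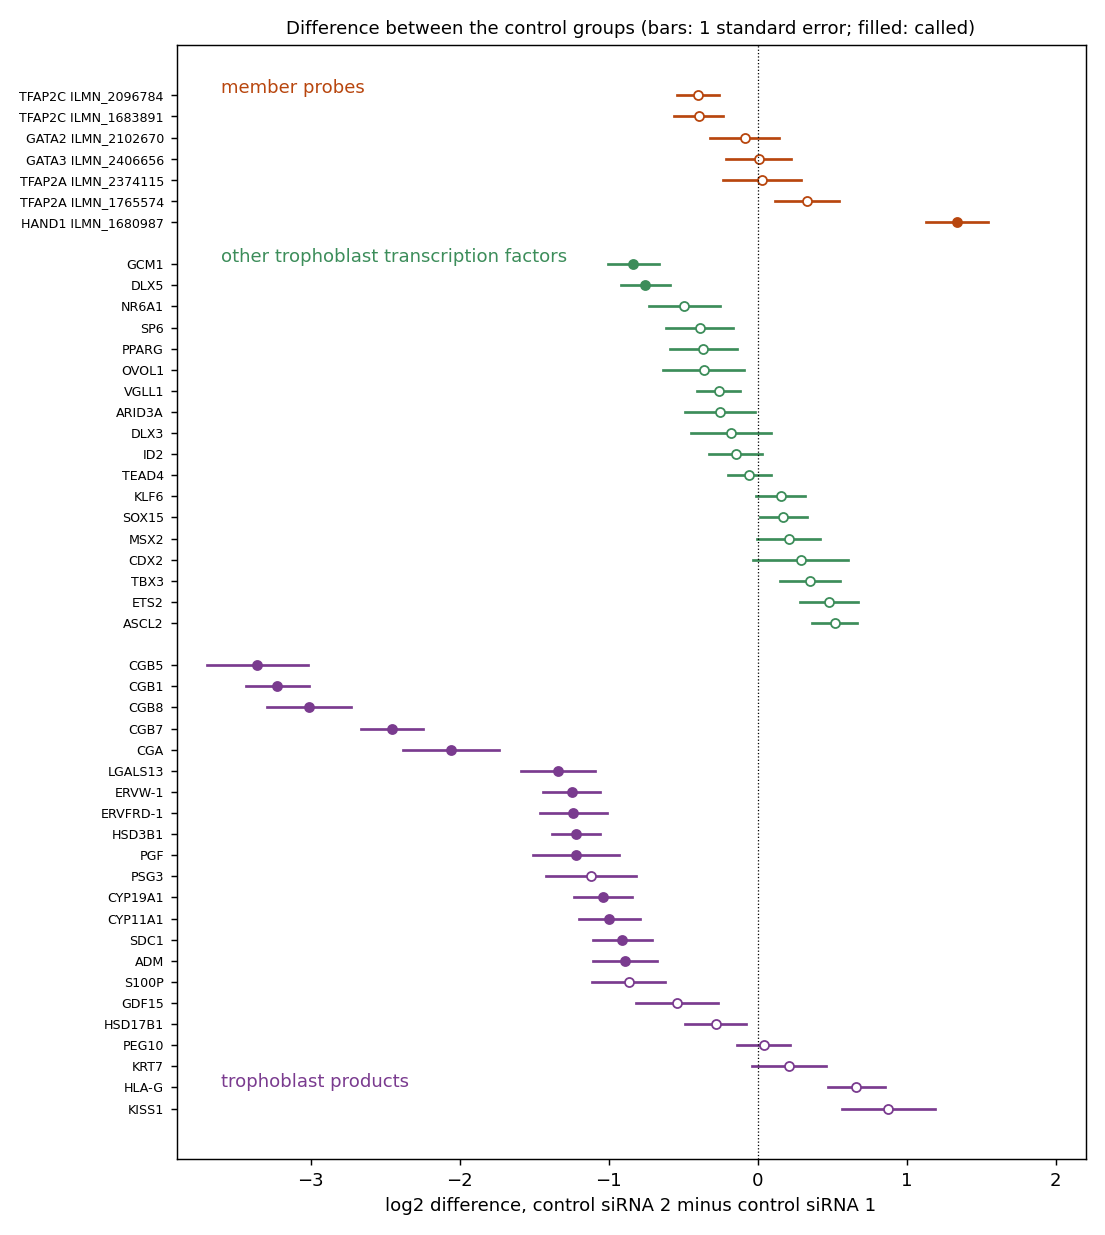
Log2 difference of control siRNA 2 minus control siRNA 1 for the member probes, other trophoblast transcription factors and trophoblast products that were tested (bars are 1 SE; filled points are called). HAND1, at 1.34, is the filled point to the right of 0, and 14 products and 2 factors are filled to the left; CGB7 is drawn at its fitted value, which is below detection in control siRNA 2.

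The proteins with which the members work were not called in any comparison. All 5 tested AP-2 cofactors of 9 listed were uncalled. CITED4, a coactivator of AP-2, had 0.55 (SE 0.39, limma adjusted P = 0.55) between the controls, with an SD of 1.04 in control siRNA 2. CITED2 had -0.49 (SE 0.25, limma adjusted P = 0.91) with ZNF658 siRNA 2. The cofactor medians rested on both replicate 3 arrays. Without these arrays the median moved from -0.077 to 0.57 with ZNF658 siRNA 2 and from 0.24 to -0.041 between the controls, and 0 were called. Of 9 partners and inhibitors of HAND1, 4 were tested. TCF3, which encodes the E proteins E12 and E47, had 0.72 (SE 0.45, limma adjusted P = 0.49) between the controls, with an SD of 1.24 in control siRNA 2. ID1, which sequesters E proteins, had -0.55 (SE 0.19, limma adjusted P = 0.18). Without both replicate 3 arrays the median of the 4 was -0.12 with ZNF658 siRNA 2 and 0.035 between the controls, and 0 were called. Of 10 further GATA factors and GATA cofactors, GATA6 and TRPS1 were tested, and GATA6 had -0.49 (SE 0.25, limma adjusted P = 0.39) between the controls. Of 26 intestinal transcription factors, 10 were tested and 0 were called, with medians of 0.063 with siRNA 1, -0.0045 with siRNA 2 and 0.064 between the controls. Without both replicate 3 arrays, KLF4 was called lower between the controls, where 5.53% of all probes were called. KRT8 and TFF3 of the 11 tested enterocyte markers were then called with ZNF658 siRNA 2, 1 higher and 1 lower. In that comparison 1.81% of all probes were called. For fibroblast, squamous, pluripotent cell and leukocyte markers, 4, 3, 1 and 3 genes were tested and 0 were called.

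The genes most like each member over the 12 arrays are given by Pearson's r, as a description, since the arrays share suppliers and normalization. For HAND1 these were TSPAN4 (r = 0.985), HOXC8 (0.951), CALB2 (0.949), POMC (0.940) and EFEMP1 (0.939). All 5 were higher with control siRNA 2 than with control siRNA 1, by 1.39, 0.90, 1.65, 0.79 and 0.36 on the log2 scale. This direction was largely set by choosing genes by r with HAND1. For the first TFAP2C probe the genes were PPFIA1 (0.945), COBLL1 (0.931), MBNL2 (0.930), CNN2 (0.927) and EGLN2 (0.925). All were lower with control siRNA 2, with MBNL2 at a log2 difference of -1.64, a direction likewise largely set by the choice. GATA3 was followed most closely by ACD (0.957), CYP2S1 (0.947), PFKL (0.947), RAB11FIP4 (0.944) and POLDIP3 (0.942). GATA2 was followed by ESRRA (0.932), ADAT1 (0.901), LCMT1 (0.900), FZD5 (0.896) and RPL19 (0.890). The brighter TFAP2A probe was followed by GORASP1 (0.921), NUP153 (0.919), VPS37B (0.919), PSMD1 (0.904) and IPO9 (0.904). No member was among these genes of another. Among the members themselves, the brighter TFAP2A probe and GATA2 had the highest r, 0.78, and HAND1 and the first TFAP2C probe the lowest, -0.74.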

How the data were processed

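Total RNA of 12 samples was hybridized to Illumina HT12 arrays. From BeadStudio the authors exported, per probe and array, the mean intensity of its beads and a detection p-value, and deposited these intensities without normalization. They also deposited log2 values for 21105 probes, normalized by the authors; the methods name variance stabilization, and the labels name lumi (version not given). Probe names came from the platform annotation of that table, so 2936 tested probes have no name. Columns of other samples numbered 0.

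The neqc function corrected the background and set equal quantiles (offset 16, negative controls inferred from detection P values; limma 3.58.1, R 4.3.3). A probe entered the test when some group had detection P under 0.01 on each of its 3 arrays, which left 14804 probes in 1 limma fit over 12 arrays (lmFit, eBayes with trend; 5 comparisons; Benjamini-Hochberg adjustment; call at adjusted P under 0.05 and at least 1.2-fold). The scripts were tested on simulated data. Methods of the study name rank product, which was run as an alternative (50 permutations), with other normalizations, filters, controls, array weights, a replicate block and arrays left out. Where a called probe was not detected in the lower group, the fold is a lower limit against the detection level. For genes with several probes, lists use the brightest.

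The members and lists were chosen with earlier results of these data known. Named were all member probes, all called listed genes, up to 4 listed genes with the largest change (fewer in the text, for length), and the 5 genes most correlated with each member.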

Additional observations from a re-analysis of the deposited data

How the results depend on the processing

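Signs of the member differences between the controls were kept by HAND1 (0.96 to 1.495, called in 21 of 21 alternatives) and by both TFAP2C probes (-0.57 to -0.15), and changed in some alternatives for GATA2, GATA3 and the dimmer TFAP2A probe. The alternatives reuse the arrays by which the members were chosen, so they show dependence on processing and are not independent support. Median scaling moved the median of all probes by 0.18 with siRNA 1, -0.11 with siRNA 2, -0.29 in the difference of the effects and 0.17 between the controls, and relative to that shift HAND1 was at 1.32 between the controls. Array weights called HAND1 (-0.52) and the second TFAP2C probe (-0.48) with siRNA 1, the latter also with siRNA 2 (0.50), in the difference of the effects (0.98) and between the controls (-0.57), and the first TFAP2C probe between the controls (-0.37). Numbers of called probes, which were 2 with siRNA 1, 0 with siRNA 2, 1 for the mean effect, 0 for the difference of the effects and 301 between the controls, moved more. In that order, where the count moved, median scaling gave 10 with siRNA 1, 2 for the mean, 51 for the difference and 169 for the controls. Without a detection filter the controls gave 184, and with detection on all 12 arrays there were 0 with siRNA 1, 0 for the mean and 170 for the controls. Array weights gave 841 with siRNA 1, 600 with siRNA 2, 2729 for the difference and 2516 for the controls. All 6 controls as 1 group gave 0 for the mean and 9 for the difference, and control siRNA 2 for both siRNAs gave 161, 8 for the mean and 285 for the difference. Rank product gave 51 with siRNA 1, 15 with siRNA 2 and 155 for the controls. Without both replicate 3 arrays of the Dharmacon pair there were 268 with siRNA 2, 0 for the mean, 1427 for the difference and 819 for the controls.

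Leaving out 1 array at a time gave 1 to 7 with siRNA 1, 0 to 0 with siRNA 2, 0 to 1 for the mean, 0 to 26 for the difference and 127 to 572 for the controls. The highest counts came without replicate 3 of ZNF658 siRNA 1 (7), of ZNF658 siRNA 2 (26) and of control siRNA 2 (572), and the lowest for the controls without replicates 1, 2 and 3 of control siRNA 1 (171, 127 and 129) and replicate 2 of control siRNA 2 (176). The cause was not tested. Same-numbered arrays had residual correlations of -0.59 to 0.40 (mean -0.03). For 3 of 12 arrays the best match was an array of the same number, so no pairing by number was seen. Whether same-numbered arrays shared a culture or day was not tested. The replicate block gave 1 call with siRNA 1, 0 for the mean and 201 for the controls. Dim probes limit what can be seen, and the third TFAP2A probe was below detection on 11 of 12 arrays.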
